A study of Rattus norvegicus with 12 samples.

Results

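The integrin and laminin genes were followed in epididymal adipocytes of rats after chronic unpredictable stress (CUS) and of control rats. Members were taken by gene name, as every integrin alpha or beta subunit and every laminin alpha, beta or gamma chain that the array design names, with Itgam left out. This gave 34 genes of the 26541 on the array, read by 40 probes, and each gene was represented by its brightest tested probe, or by its brightest probe where none was tested. They were 21 integrin subunits, 10 laminin chains and 3 proteins that the same name pattern caught because they bind integrin tails (Itgb1bp1, Itgb1bp2 and Itgb3bp). A pair of probes that the design names RGD1564327 now belongs to Itga8, and it stayed outside this naming rule.

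Male Fisher 344 rats formed both groups. The 6 CUS rats met 2 randomly ordered stressors on each of 35 days, and the 6 control rats were only handled, at weighing, every 2 days. Total RNA of each rat was hybridised to a 1-colour Agilent array, so that every value is a fluorescence intensity of a 60-base probe. The labels name adipocytes as the cells and preadipocytes as the source of the RNA. All 9 adipocyte markers with a probe passed the filter on dim probes, and their mean log2 signal was 3.04 to 3.49 in CUS rats and 2.61 to 3.64 in control rats, relative to the 75th percentile of the array.

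Integrins are receptors made of an alpha and a beta chain that tie the actin skeleton of a cell to the matrix around it and signal in both directions. Laminins are trimers of an alpha, a beta and a gamma chain that build the basement membrane, the thin sheet of matrix that wraps each fat cell, capillary and smooth muscle cell. The alpha chain of a laminin carries the main binding site for integrins, and fat cells are known for their thick basement membrane.

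Signals are given as log2 intensity relative to the 75th percentile of the array, and differences as CUS minus control on that log2 scale. A probe was tested where 6 or more of the 12 arrays had it well above background, which held for a probe of 23 of the 34 genes. With limma and Benjamini-Hochberg adjustment over all tested probes, 3 of the 23 genes were higher in CUS rats (13.0%) and 9 were lower (39.1%) at an adjusted p under 0.05. Of all 17417 tested genes, 24.1% were higher and 25.9% were lower. The 9 include Lamc1, whose probes passed in opposite directions. With the mean of the probes of a gene 8 members were lower. At a fold of 2 or more, 1 member was higher and 5 were lower, against 3.18% and 8.8% of all tested genes. The groups did not overlap, with every CUS array above or below every control array, for 2 higher and 3 lower members, against 10.3% and 11.7% of all tested genes. The median difference was -0.20 over the members and -0.03 over all tested genes. The shares of the members were not tested against these backgrounds. Without control replicate 3, an array that stands apart for several members, the counts were 3 higher and 10 lower.

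All CUS arrays lay on 1 slide and all control arrays on another, so slide and group cannot be told apart. The 75th percentile itself was an intensity of 541 to 627 on CUS arrays and 230 to 400 on control arrays, and scaling on the 8 spike-in probes in its place moved the median gene by 0.83 towards CUS. Under that scaling 12 members were higher and 1, Lama4, was lower, while Itga4, Itgad, Itgb4 and Lama5 kept a negative sign without passing. All directions are therefore relative to the bulk of the genes on each array. In such bulk RNA, fewer cells of a type and less RNA per cell cannot be told apart.

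**Figure D1:**
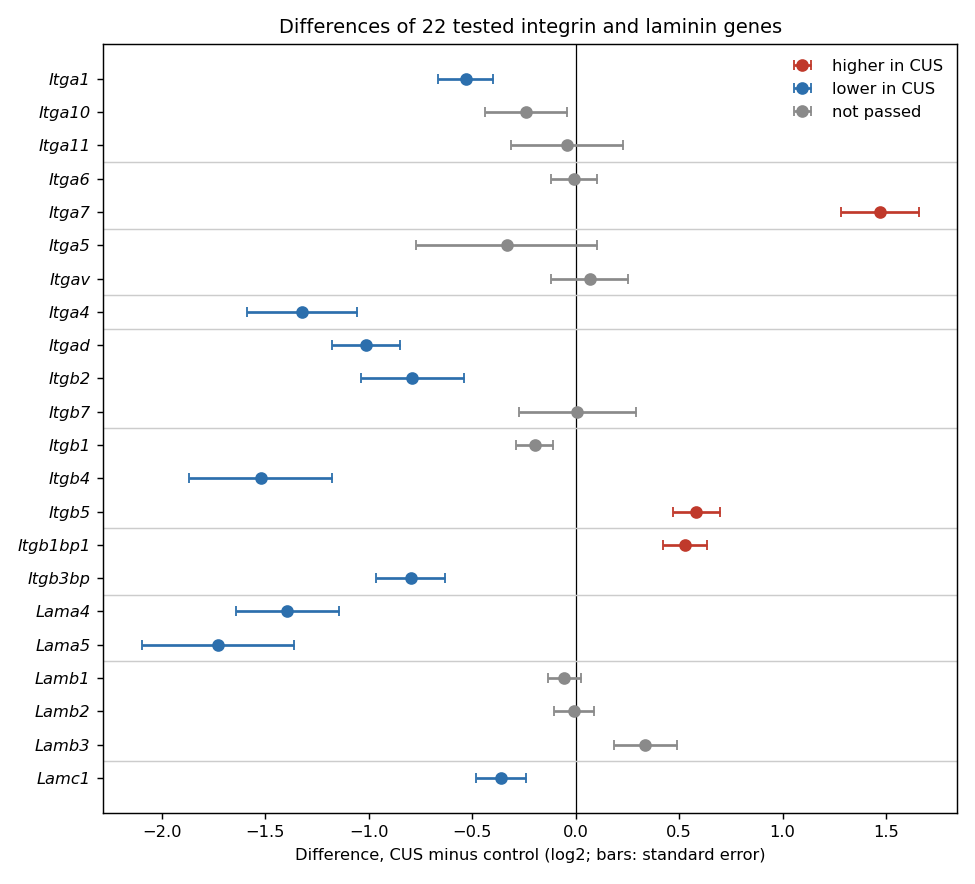
Difference between CUS and control arrays (log2, horizontal axis, bars are standard errors of the limma fit) for 22 tested members, grouped by role from collagen-binding alpha subunits at the top to laminin gamma chains at the bottom. Itga7 stands far to the right at 1.47, and Lama5, Itgb4, Lama4 and Itga4 stand farthest to the left, at -1.73, -1.52, -1.39 and -1.32.

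The probes are what the array measured, and those of 6 members that passed, taken from several roles, are shown 5′ to 3′, as the array design gives them. The probe of Itga7, which carried the largest rise, lies on chromosome 7 (rn4 2264646 to 2264705, plus strand). The probe of Itgb5 that passed the test lies at 68644285 to 68644344 on chromosome 11, minus strand. Those of Itga1 (chromosome 2, 47107893 to 47112038, minus strand) and Itgad (chromosome 1, 187462990 to 187463537, plus strand) each reach over more than 60 bases of genome, so that each reads a join between exons. The probe of Lama5, which carried the largest fall, lies at 169234188 to 169234247 on chromosome 3, minus strand. That of Lama4, the fall that also passed under the spike-in scaling, lies at 43203402 to 43203461 on chromosome 20, plus strand. All are in rn4, the build of the design, and exons or untranslated parts were not annotated here.
Itga7: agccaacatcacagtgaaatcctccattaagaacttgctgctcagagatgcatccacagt
Itgb5: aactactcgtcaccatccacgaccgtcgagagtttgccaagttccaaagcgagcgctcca
Itga1: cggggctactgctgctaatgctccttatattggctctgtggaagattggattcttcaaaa
Itgad: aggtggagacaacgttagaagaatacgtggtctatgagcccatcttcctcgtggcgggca
Lama5: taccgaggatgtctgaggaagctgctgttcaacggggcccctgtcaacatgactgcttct
Lama4: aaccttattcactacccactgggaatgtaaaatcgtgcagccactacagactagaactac

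The laminin-binding alpha subunits gave the strongest rise among the members. Itga7, which pairs with the beta 1 subunit and is best known as the laminin receptor of skeletal and smooth muscle, had signals of 1.40, 1.91 and 2.07 (lowest, median and highest) on CUS arrays and of -0.04, 0.32 and 1.14 on control arrays. Every CUS array was above every control array. Itga7 was 2.77-fold higher in CUS rats (difference 1.47, SE 0.19, limma adjusted p = 8.46e-05), and it was higher under every scaling tried. Itga6, the laminin receptor subunit shared by many epithelial and endothelial cells, differed by -0.01 (SE 0.11, limma adjusted p = 0.95), and its sign changed with the scaling. Itga3, a laminin receptor subunit of epithelia, was well above background on 1 CUS array and on no control array and was not tested.

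The collagen-binding alpha subunits had 1 member below its control level and none above. Itga1, the collagen IV receptor subunit of smooth muscle, fibroblasts and many stromal cells, had signals of 4.47, 5.04 and 5.28 on CUS arrays and of 5.29, 5.58 and 5.70 on control arrays. The groups did not overlap, though the highest CUS array and the lowest control array almost touched. Itga1 was 1.45-fold lower in CUS rats relative to the bulk of the genes (difference -0.53, SE 0.13, limma adjusted p = 0.00536), and 0.30 higher under the spike-in scaling. Itga10 and Itga11, the collagen receptor subunits of cartilage and of fibroblasts, differed by -0.24 (limma adjusted p = 0.324) and -0.04 (0.906). Itga2, the collagen I receptor subunit of platelets and epithelia, was well above background on 1 CUS array and 2 control arrays and was not tested.

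Neither tested alpha subunit that recognises the RGD sequence of fibronectin and vitronectin passed. Itga5, the fibronectin receptor subunit, had signals of -3.26, -2.67 and -1.90 on CUS arrays and of -4.47, -2.03 and -1.41 on control arrays. Control replicate 3 lay far below the other 5 control arrays, and it was the array on which this probe was not well above background. The difference was -0.33 (SE 0.44, limma adjusted p = 0.542), and without control replicate 3 it was -0.76 (adjusted p = 0.0113). Itgav, the subunit of the vitronectin receptors, differed by 0.07 (SE 0.19, limma adjusted p = 0.774). Its direction was not settled, with -0.45 (limma adjusted p = 0.000736) after another background correction and 0.90 (adjusted p = 0.00231) under the spike-in scaling.

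Itga4, which as alpha 4 beta 1 binds VCAM-1 and fibronectin and is found mainly on leukocytes, had signals of -4.47, -4.04 and -3.43 on CUS arrays and of -3.82, -2.60 and -2.17 on control arrays. Of the control arrays, only replicate 3 fell within the range of the CUS arrays. Itga4 was 2.50-fold lower in CUS rats relative to the bulk of the genes (difference -1.32, SE 0.27, limma adjusted p = 0.00168). Under the spike-in scaling the difference was -0.49 and did not pass (limma adjusted p = 0.19).

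Of the subunits that mark leukocytes, 2 of 3 tested were lower, against 25.9% of all tested genes. Itgad, the alpha D chain that pairs with beta 2 on macrophages, had signals of -4.60, -4.10 and -3.80 on CUS arrays and of -3.43, -3.20 and -2.76 on control arrays, with no overlap. It was 2.02-fold lower in CUS rats relative to the bulk of the genes (difference -1.01, SE 0.16, limma adjusted p = 0.000425). The probe was dim, though well above background on all 6 CUS and all 6 control arrays. Under the spike-in scaling the difference was -0.19 and did not pass (limma adjusted p = 0.56). Whether the probe also binds RNA of its close relatives was not tested. Itgb2, the beta chain of all the CD11/CD18 leukocyte integrins, had signals of -1.97, -1.47 and -1.01 on CUS arrays and of -1.46, -0.80 and -0.10 on control arrays. Control replicate 3 was again the lowest control array, and the ranges overlapped. Itgb2 was 1.73-fold lower in CUS rats relative to the bulk of the genes (difference -0.79, SE 0.25, limma adjusted p = 0.0193), and 0.04 higher under the spike-in scaling. Itgb7, the partner of alpha 4 on gut-homing lymphocytes, differed by 0.01 (SE 0.28, limma adjusted p = 0.981). It differed by -0.37 (limma adjusted p = 0.0032) after another background correction and by -0.42 (adjusted p = 0.0486) with array weights. Itgae and Itgal, the alpha chains of the E-cadherin receptor and of LFA-1 on lymphocytes, were well above background on no array.

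Leukocyte marker lists were read beside these subunits, where 24.1% of all tested genes were higher and 25.9% lower. Of the 9 tested macrophage markers 3 were higher and 1 was lower, and their summed signal, in units of the 75th percentile of the array, ran from 34.0 to 88.3 on CUS arrays and from 14.2 to 52.0 on control arrays. Of the 11 T and NK cell markers, 6 were tested, 2 were higher and none was lower, while Cd2, Cd3e and Cd8a were well above background on no array. The B cell markers Cd79b and Ms4a1 were above background nowhere. Of the 8 mast cell markers, 7 were higher and none was lower, and their summed signal was 2.18 to 5.65 on CUS arrays and 0.348 to 0.529 on control arrays. Of the 3 tested neutrophil markers, 2 were higher and 1 was lower. The part of these cells in the results for Itga4, Itgad and Itgb2 was not tested.

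Among the other beta subunits, changes ran both ways. Itgb5, which with alpha V forms a vitronectin receptor, had signals of 0.60, 0.74 and 1.25 on CUS arrays and of 0.02, 0.21 and 0.40 on control arrays, with no overlap. Itgb5 was higher in CUS rats by 0.58 (SE 0.11, limma adjusted p = 0.00129). Its other probe, 1.7 kb away, differed by 0.27 and did not pass (limma adjusted p = 0.0855).

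Itgb4, which pairs only with alpha 6 and anchors hemidesmosomes to laminin, had signals of 0.28, 0.98 and 1.26 on CUS arrays and of 0.71, 2.65 and 3.06 on control arrays. Control replicate 3 lay at 0.71, and the other 5 control arrays were above every CUS array. Itgb4 was 2.87-fold lower in CUS rats (difference -1.52, SE 0.35, limma adjusted p = 0.00337), and without control replicate 3 the difference was -1.86. Under the spike-in scaling it was -0.69 and did not pass (limma adjusted p = 0.125). Itgb1, the common partner of most alpha chains, differed by -0.20 (SE 0.09, limma adjusted p = 0.0839) on its brightest probe and by 0.08 (adjusted p = 0.587) on the other, and neither passed. The integrin beta genes Itgb3, Itgb6 and Itgb8 were not tested. Itgb3, the beta chain of the platelet fibrinogen receptor, was well above background on no CUS array and 1 control array, Itgb6, an epithelial subunit, on 1 CUS array and 4 control arrays, and Itgb8 on none.

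The proteins that bind integrin tails also split. Itgb1bp1 (ICAP-1), which binds the beta 1 tail and restrains its activation, had signals of 0.37, 0.72 and 0.83 on CUS arrays and of -0.03, 0.11 and 0.47 on control arrays. CUS replicate 1 was the lowest CUS array and was the only one below the highest control array. Itgb1bp1 was 1.44-fold higher in CUS rats (difference 0.53, SE 0.11, limma adjusted p = 0.00165). Itgb3bp, which binds the beta 3 tail and is also known as a centromere protein, had signals of -0.77, -0.32 and 0.10 on CUS arrays and of 0.07, 0.54 and 0.90 on control arrays. Only the highest CUS arrays reached the lowest control array. Itgb3bp was 1.74-fold lower in CUS rats relative to the bulk of the genes (difference -0.80, SE 0.17, limma adjusted p = 0.00215), and 0.03 higher under the spike-in scaling. Itgb1bp2 (melusin), a protein of striated muscle, was well above background on no array.

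**Figure D2:**
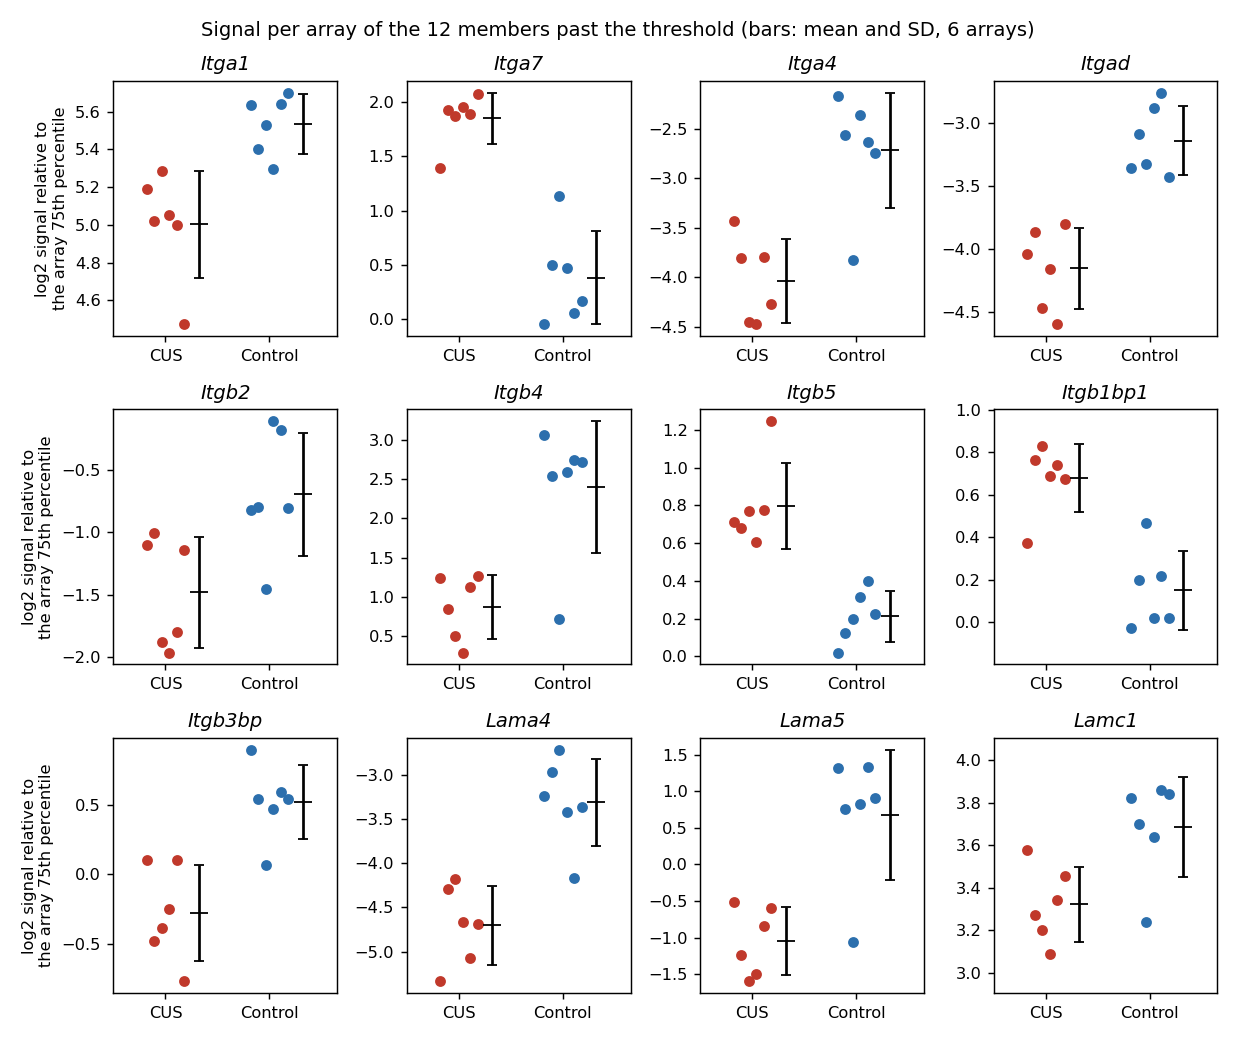
Log2 signal relative to the 75th percentile of the array (vertical axis, its own range in each panel) for the 12 members past the threshold, with 1 point per array, CUS in red on the left and control in blue on the right, and bars for the mean and SD of 6 arrays. Itga1, Itga7, Itgad, Itgb5 and Lama4 show no overlap between groups, and in the panels of Itga4, Itgb4, Lama5 and Lamc1 a lone control array, replicate 3, lies among the CUS arrays.

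Both tested laminin alpha chains fell, by the largest and the third largest amounts among the members. Lama5, the alpha chain of the laminins of mature vascular and epithelial basement membranes, had signals of -1.60, -1.04 and -0.51 on CUS arrays and of -1.06, 0.87 and 1.33 on control arrays. Control replicate 3 was the one at -1.06, and every other control array was above every CUS array. Lama5 was 3.31-fold lower in CUS rats (difference -1.73, SE 0.37, limma adjusted p = 0.0023), and the difference was -2.08 without control replicate 3.

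Lama4, the alpha chain of the laminins around capillaries, muscle and fat cells, had signals of -5.34, -4.68 and -4.18 on CUS arrays and of -4.16, -3.30 and -2.71 on control arrays. The groups did not overlap, though the highest CUS and the lowest control array almost met. Lama4 was 2.63-fold lower in CUS rats (difference -1.39, SE 0.25, limma adjusted p = 0.000771), on a dim probe that was well above background on 5 of the 6 CUS arrays. With another background correction (normexp) the difference was -0.85. Both falls kept their sign under every scaling tried, at -0.90 for Lama5 and -0.57 for Lama4 with the spike-in RNAs. Of these only that of Lama4 still passed with the spike-in RNAs. Lama3, the alpha chain of the laminin that anchors epithelia, was well above background on 3 CUS arrays and no control array, with means of -5.39 in CUS rats and -6.00 in control rats, and was not tested. Lama1, the alpha chain of embryonic basement membranes, was well above background on no array.

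None of the 3 laminin beta chains passed. Lamb1, which joins the alpha 4 or alpha 5 chain, had signals of 4.12, 4.24 and 4.37 on CUS arrays and of 4.11, 4.32 and 4.41 on control arrays, and differed by -0.05 (SE 0.08, limma adjusted p = 0.586). Lamb2, its counterpart in the basement membranes of mature vessels and synapses, differed by -0.01 (SE 0.10, limma adjusted p = 0.954). Lamb3, the beta chain of the epithelial anchoring laminin, differed by 0.34 (SE 0.15, limma adjusted p = 0.0783), with 0.67 (adjusted p = 0.00461) after quantile normalization and -0.28 (adjusted p = 0.0147) after another background correction, so that its direction was not settled.

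The gamma chain shared by these laminins gave opposite results from its probes. On its brightest probe Lamc1 had signals of 3.09, 3.31 and 3.58 on CUS arrays and of 3.24, 3.76 and 3.86 on control arrays, and was 1.28-fold lower in CUS rats (difference -0.36, SE 0.12, limma adjusted p = 0.026). The other probe had signals of -1.34, -1.24 and -1.17 on CUS arrays and of -1.79, -1.46 and -1.26 on control arrays, and was higher by 0.27 (SE 0.10, limma adjusted p = 0.0392). No direction can be given for Lamc1 as a gene. The mean of both probes differed by -0.05 (adjusted p = 0.706), and the fall on the brightest probe lost its call without any 1 of 6 arrays (CUS replicates 2, 3 and 4, control replicates 1, 5 and 6) and turned to 0.47 under the spike-in scaling. The probes lie 9.8 kb apart on chromosome 13 (rn4). The brightest, at 68241505 to 68241564, is nearer the 3′ end of this minus-strand gene and holds the polyadenylation signal AATAAA. The other, at 68251375 to 68252423, reads a join between exons and is shown because it carried the opposite sign.
Lamc1, second probe: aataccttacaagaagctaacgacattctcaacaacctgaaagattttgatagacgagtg

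Lamc3, a gamma chain of the laminins, was well above background on no CUS array and 1 control array and was not tested.

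**Figure D3:**
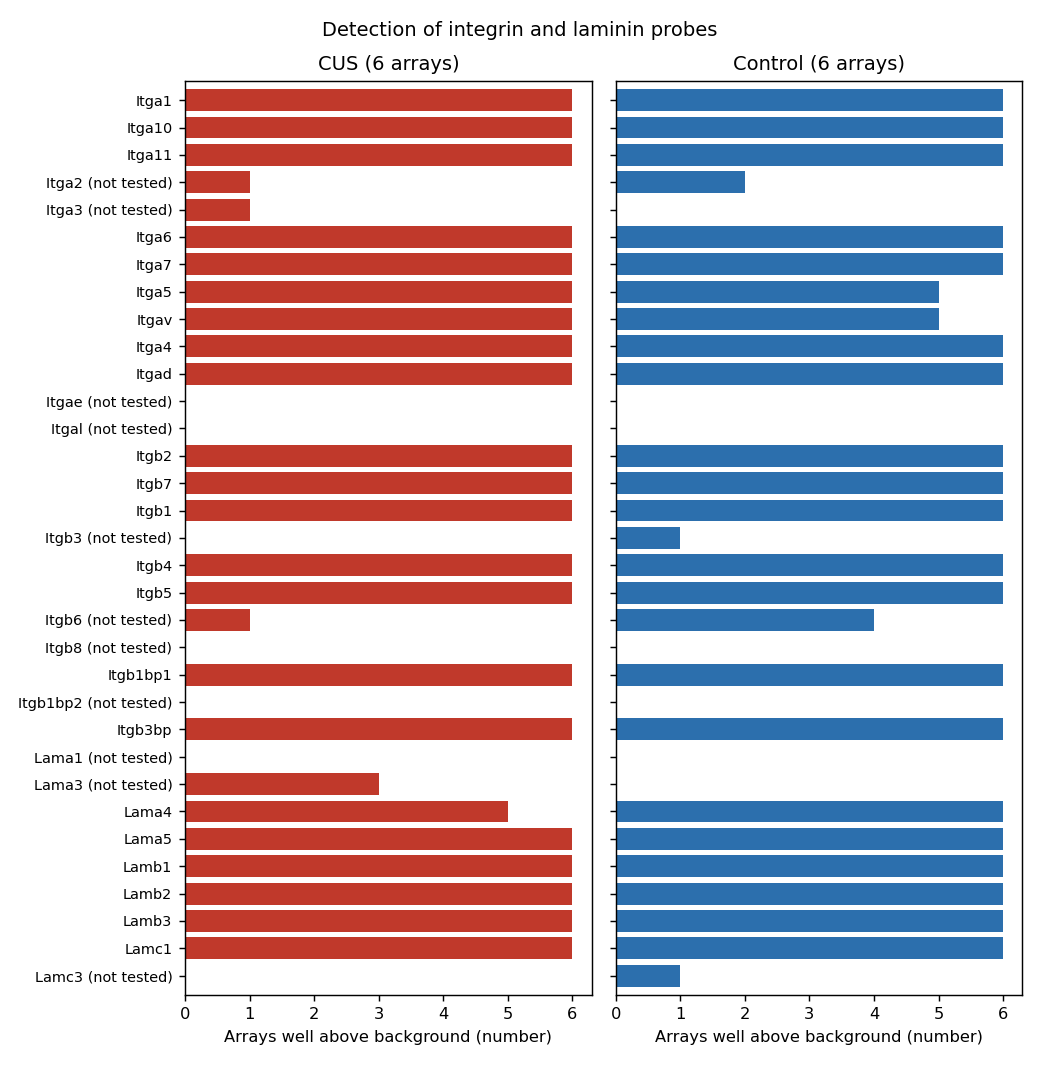
Number of arrays (horizontal axis, out of 6) on which the probe of each of 33 members was well above background, for CUS arrays on the left and control arrays on the right. For 19 members the probe was above background on all 12 arrays and for 5 on none, and Lama3 had 3 CUS arrays and no control array. The CUS arrays were brighter as a whole, so these counts do not compare the level of a gene between groups.

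Integrin and laminin chains work only in complexes, so the ratio of partner chains on the same array was also compared. Such a ratio is free of the scaling of the array, and only its change between groups was read, since its level depends on the pair of probes. The pairs were taken from textbook knowledge of which chains join, after the results for single genes were known. These 20 pairs, with both chains tested, were compared by a two-sided exact permutation test over the 924 ways to split the 12 arrays, where the smallest possible p is 0.0022, with Benjamini-Hochberg adjustment over the 20 pairs. For 13 pairs the ratio differed, 4 of them higher and 9 lower in CUS rats. The pairs share genes, and 6 of the 9 lower ones hold Lama4 or Lama5, which were lower on their own. Each of the 13 holds a gene whose brightest probe had passed on its own, so the ratios are no separate support for those results. No background share was computed for ratios, and of all tested genes 24.1% were higher and 25.9% lower on their own.

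Both laminin alpha chains were lower relative to all 3 of their tested partners. The log2 ratio of Lama5 to Lamb1 had a lowest, median and highest value of -5.86, -5.23 and -4.78 on CUS arrays and of -5.17, -3.37 and -3.01 on control arrays (change -1.67, exact permutation p = 0.00866, adjusted p = 0.0173). Only control replicate 3 lay among the CUS arrays. The ratio of Lama5 to Lamb2 changed by -1.72 (exact permutation, adjusted p = 0.0162). The ratio of Lama5 to Lamc1 changed by -1.37 (exact permutation, adjusted p = 0.0173). For Lama4 the changes were -1.34 against Lamb1 and -1.39 against Lamb2 (exact permutation, adjusted p = 0.0162 for each), and -1.03 against Lamc1 (adjusted p = 0.0289), the last of which lost its call without any 1 of 3 arrays (CUS replicates 5 and 6, control replicate 3). In each of these Lama4 ratios only control replicate 5 lay among the CUS arrays. With normexp the change of Lama4 against Lamc1 was -0.58. Lamb1 and Lamb2 were each higher relative to Lamc1 (0.31 and 0.35, exact permutation, adjusted p = 0.0162 for each), but only on the brightest Lamc1 probe. With the mean of both Lamc1 probes these changes were -0.01 and 0.04.

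Among the integrins, the ratio of Itga7 to Itgb1 changed by 1.67 with no overlap between groups (exact permutation p = 0.0022, adjusted p = 0.0162). The ratios of Itga1 and Itga4 to Itgb1 changed by -0.33 (exact permutation, adjusted p = 0.03) and by -1.12 (adjusted p = 0.0162). For Itga1 the call was lost without any 1 of 6 arrays (CUS replicates 5 and 6, control replicates 1, 3, 5 and 6). Itga6 was higher relative to Itgb4, its partner in hemidesmosomes, by 1.51 (exact permutation, adjusted p = 0.0197), with control replicate 3 among the CUS arrays. The ratio of Itga4 to Itgb7 changed by -1.33 with no overlap (exact permutation, adjusted p = 0.0162), and by -0.57 with normexp (adjusted p = 0.00541). The ratio of Itgad to Itgb2, which were both lower on their own, changed by -0.22 and did not pass (exact permutation, adjusted p = 0.295). That of Itgav to Itgb5 changed by -0.51 (exact permutation, adjusted p = 0.0835), and it passed without CUS replicate 1 or control replicate 3 or 5. With normexp it changed by -1.01 and passed (exact permutation, adjusted p = 0.00541), and with the mean of probes by -0.36 (adjusted p = 0.177). The changes of the remaining pairs lay between -0.14 and 0.27.

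**Figure D4:**
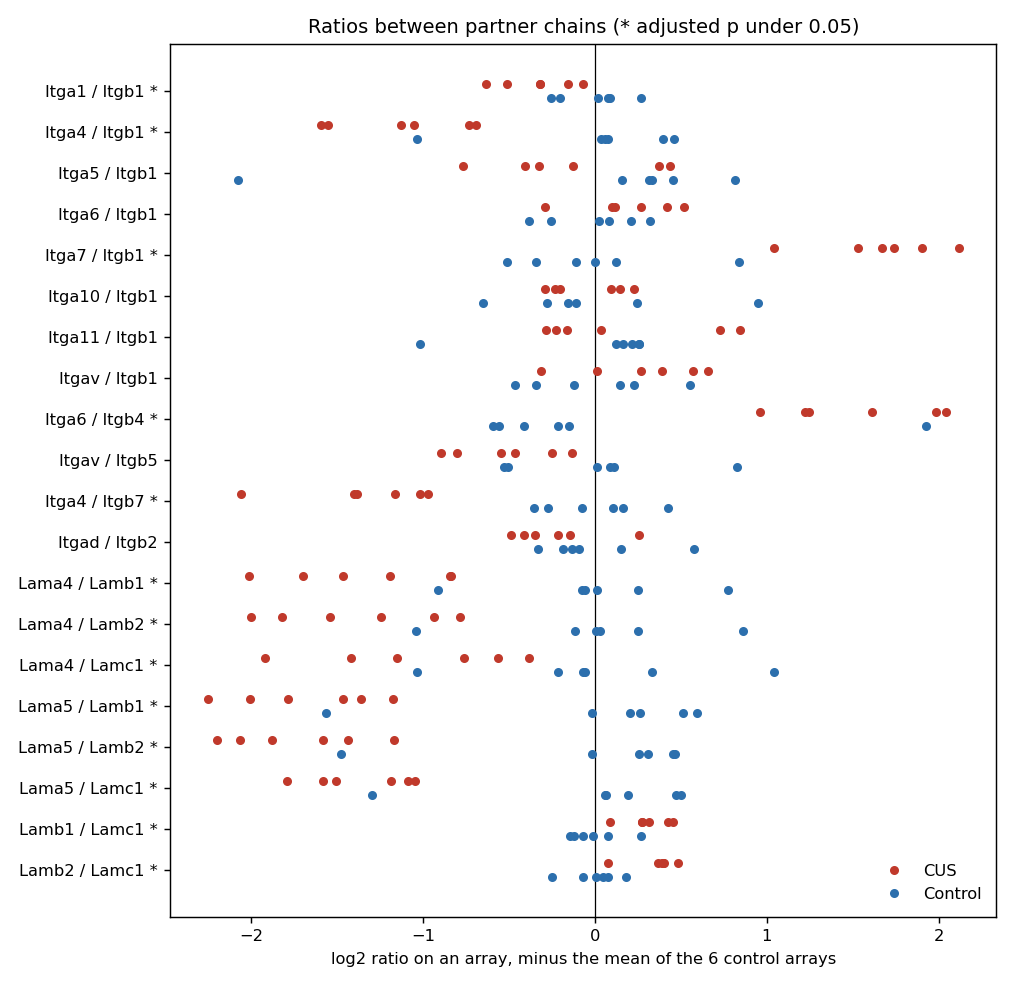
Log2 ratio between partner chains on each array, minus the mean of the 6 control arrays (horizontal axis), with 1 point per array, CUS in red above control in blue, for 20 pairs of chains. The CUS points of Itga7 over Itgb1 lie to the right of all control points and those of Itga4 over Itgb7 to the left. In the rows of Lama4, of Lama5 and of Itga6 over Itgb4 a lone control array lies among the CUS points. It is replicate 5 for Lama4 and replicate 3 for the others.

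The promoters of the 2 laminin alpha chains that fell were set side by side. RefSeq (GRCr8) gave a promoter for 25 of the 34 members, and the 250 bases before the start of each gene were searched on both strands. A GC box, searched as GGGCGG, was present in 11 of the 25 members (44.0%), against 30.5% of all 33469 promoters. The median share of G and C was 58.4% in the promoters of the members and 51.2% in all promoters. No motif share was adjusted for this. Of the 12 members that passed, 8 had a promoter to search, and Itga7, Itgad, Itgb2 and Itgb4 had none. A GC box was in neither of the 2 higher members searched (Itgb5 and Itgb1bp1), in 2 of the 6 lower ones and in 5 of the 8 that did not pass. The 2 lower ones were Lama5 and Lamc1, and Lamc1 was lower on its brightest probe only. The letters TATAAA of the TATA box were present in 2 members, Itgb7 and Lama4 (8.0%), against 12.9% of all promoters. The receptor for glucocorticoids has a core site, searched as AGAACA, that was present in 3 members (12.0%), against 17.5% of all promoters, and in none of the 8 searched members that passed. The AP-1 site, searched as TGACTCA, was found in Lama3 alone, which makes 4.0% of the members, against 4.0% of all promoters. The letters CCAAT were present in 5 members (20.0%), against 34.0% of all promoters, and of the 8 searched members that passed only Itgb3bp held them. An E-box, searched as CACGTG, was present in no member, against 5.6% of all promoters. Lama4 (GRCr8 chromosome 20, 43946648 to 43946897, plus strand) holds the letters TATAAA, far from the gene start, and no GC box. Lama5 (chromosome 3, 187695975 to 187696224, minus strand) holds the letters of 4 GC boxes and no TATAAA. The capitals mark these matches, none of which overlap, and the matches describe the letters and show no binding.
Lama4: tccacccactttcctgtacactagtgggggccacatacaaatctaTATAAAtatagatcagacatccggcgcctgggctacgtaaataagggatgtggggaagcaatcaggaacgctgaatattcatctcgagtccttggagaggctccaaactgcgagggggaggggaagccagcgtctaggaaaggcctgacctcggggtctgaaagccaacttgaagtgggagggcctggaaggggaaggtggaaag
Lama5: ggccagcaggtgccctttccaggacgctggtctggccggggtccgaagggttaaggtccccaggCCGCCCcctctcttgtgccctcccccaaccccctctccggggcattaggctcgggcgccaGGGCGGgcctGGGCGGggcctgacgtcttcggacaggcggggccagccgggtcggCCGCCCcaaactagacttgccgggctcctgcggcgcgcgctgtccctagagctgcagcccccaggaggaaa

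The members lie on 15 chromosomes in rn4, with 3 not placed, and some lie close together. Itga1 and Itga2 lie 139 kb apart on chromosome 2 and Itgal and Itgad 865 kb apart on chromosome 1, where Itga2 and Itgal were not tested.

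Genes that work with the members were described by lists drawn up by role, with earlier results of these data known. The genes named from each list are up to 4 with the largest differences among those that passed. Col4a1 and Col4a2 are named besides, next to the other collagen IV chains. Of the falls among them, only that of Spp1 still passed under the spike-in scaling. Of the 33 tested genes of the adhesion complex, the adaptors and kinases at integrin tails, 6 were higher and 9 lower. Their median difference was -0.13. Of all tested genes 24.1% were higher and 25.9% lower, with a median of -0.03, and no list was tested against these shares. Cd151, a tetraspanin that binds laminin-binding integrins, was higher by 1.25 (SE 0.16, limma adjusted p = 0.000108). Crk, a signalling adaptor, was higher by 0.76 (SE 0.10, limma adjusted p = 0.000138) but lower, at -0.11, with another background correction. Fermt3, the kindlin of blood cells, and Actn4, an actin crosslinker, differed by -0.95 (limma adjusted p = 0.00129) and -0.73 (adjusted p = 0.0122), and Actn4 by 0.09 under the spike-in scaling.

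Of the 12 tested basement membrane partners of laminin, 3 were higher and 4 lower, against 24.1% and 25.9% of all tested genes. Their median was -0.14. Agrn, a heparan sulfate proteoglycan that binds laminin, differed by -0.89 (SE 0.20, limma adjusted p = 0.00327) on its brightest probe and by -0.18 (adjusted p = 0.12) on the other. Nid1, which links laminin to collagen IV, was higher by 0.52 (SE 0.15, limma adjusted p = 0.0111). The collagen IV chains Col4a4 and Col4a5 differed by -1.31 (limma adjusted p = 0.0326) and -1.13 (adjusted p = 0.02), and neither passed after quantile normalization (adjusted p = 0.189 and 0.0606). The Col4a4 probe was dim, well above background on 3 CUS arrays and 5 control arrays. Other collagen IV chains did not share this direction. Col4a2 was higher by 0.50 (limma adjusted p = 0.00188), and Col4a1 differed by -0.18 and did not pass (adjusted p = 0.286).

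Of 18 other tested integrin ligands, 3 were higher and 5 lower, against 24.1% and 25.9% of all tested genes. Their median was -0.61. Icam1, the ligand of beta 2 integrins on leukocytes, had signals of 2.42, 2.82 and 3.21 on CUS arrays and of 1.08, 1.47 and 1.60 on control arrays, and was 2.63-fold higher (difference 1.40, SE 0.14, limma adjusted p = 1.36e-05). Spp1 (osteopontin), a ligand of alpha V integrins, had signals of -2.56, -2.19 and -1.23 on CUS arrays and of -0.67, -0.32 and 0.38 on control arrays, and was 3.62-fold lower (difference -1.86, SE 0.27, limma adjusted p = 0.000194). Neither gene showed an overlap between groups. The fibrillar collagens Col1a1 and Col3a1 differed by -1.64 (limma adjusted p = 0.00187) and -1.17 (adjusted p = 0.000717). Of 10 other matrix receptors, 1 was higher and 2 were lower. The syndecans Sdc3 and Sdc1 differed by -0.94 (limma adjusted p = 0.00115) and -0.80 (adjusted p = 0.0245), and Sdc1 by 0.03 under the spike-in scaling. Sdc4 was higher by 0.85 on its brightest probe (limma adjusted p = 0.00688), while its other probe differed by -0.67 (adjusted p = 0.0626).

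Markers of cells that make or carry these chains were read in the same way, beside the 24.1% of all tested genes that were higher and the 25.9% that were lower. Of 14 endothelial markers none was higher, 6 were lower and 8 did not pass, with a summed signal of 24.8 to 49.96 on CUS arrays and of 23.7 to 103 on control arrays. Of 12 smooth muscle and pericyte markers 1 was higher and 8 were lower (16.1 to 26.8 on CUS arrays and 16.3 to 66.4 on control arrays). The summed ranges of both lists overlapped between groups. Of 7 tested fibroblast and preadipocyte markers 1 was higher, 1 was lower and 5 did not pass, and of 9 adipocyte markers 4 were higher and 1 was lower. Of 8 mesothelial markers 6 were higher and none was lower (11.0 to 17.8 on CUS arrays and 2.68 to 14.2 on control arrays). All 5 red blood cell markers were higher, at 1148 to 1519 on CUS arrays and 40.5 to 114 on control arrays. Control replicate 3 had the lowest mean log2 signal of the control arrays for the endothelial (-0.54), smooth muscle (-1.05), fibroblast, mesothelial and macrophage lists and the highest for the adipocyte list, and it was the lowest control array for 12 of the 23 tested members. The part of these cell types in the results for Itga1, Itga7, Itgb4, Lama4 and Lama5 was not tested.

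**Figure D5:**
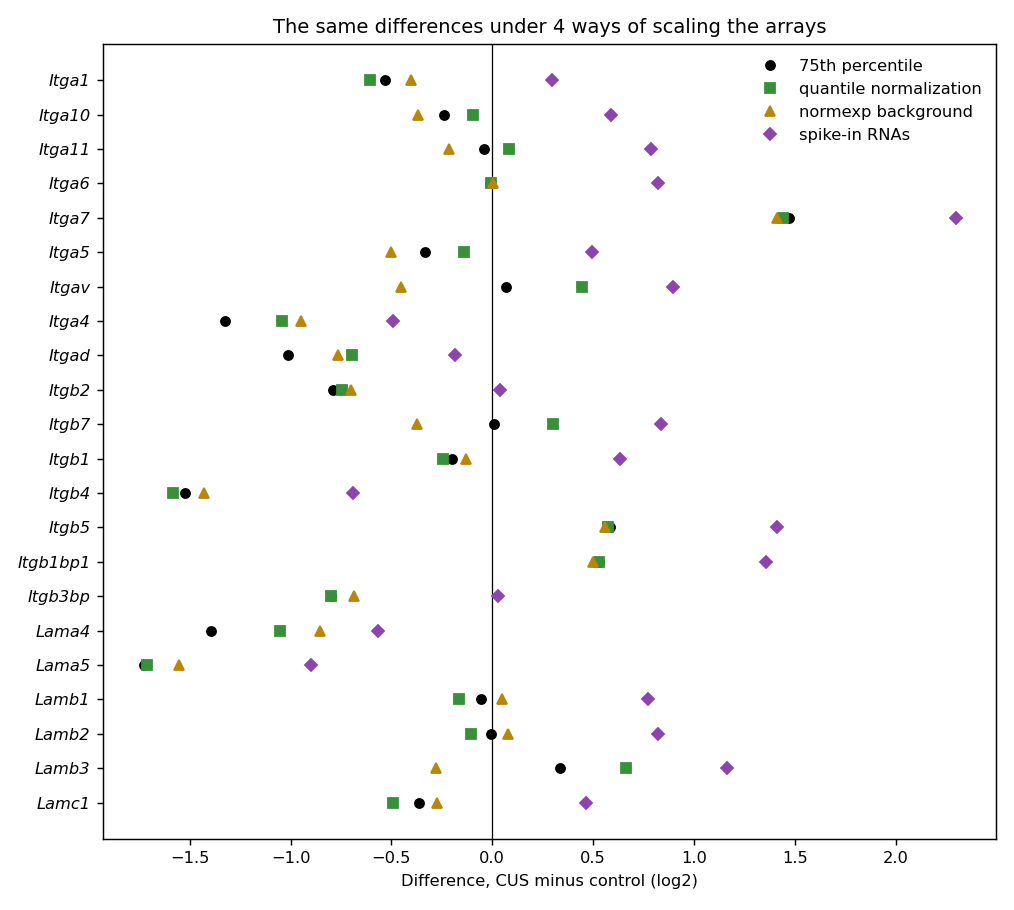
Difference between CUS and control arrays (log2, horizontal axis) of 22 tested members under 4 ways of scaling or correcting the arrays, with a symbol for each. Itga7, Itgb5 and Itgb1bp1 stay to the right of 0 and Itga4, Itgad, Itgb4, Lama4 and Lama5 to the left under all of them, while the spike-in scaling moves Itga1, Itgb2, Itgb3bp and Lamc1 to the right of 0.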

How the data were processed

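Adipocyte RNA of 6 CUS and 6 control rats was read on 1-colour Agilent arrays. The scanner intensities were used as the authors deposited them, after Agilent Feature Extraction 10.7.3.1 had removed background and given dim spots a surrogate value. The deposited table of quantile normalized intensities served only as an alternative. Outlier spots were dropped, replicate spots averaged, and log2 values set relative to the 75th percentile of each array. The filter on dim probes left 19727 probes for limma 3.58.1 (R 4.3.3), two-sided and without covariates, since slide and group coincide. Ratios, tables and figures used Python 3.11.15 with pandas 2.3.3 and NumPy 2.4.6. Full values were given for members past an adjusted p of 0.05 with a difference of 0.5 or more, or with probes that passed in opposite directions. They were also given for Itga5 and Lamb1, chosen after their values were seen. Up to 4 genes were named per pathway list, and Col4a1 and Col4a2 were added after their values were seen. Members, lists and tests were chosen with earlier results of these data known. A simulation drew independent normal noise for 19727 probes and shifted only a few of them. The fit called 62 of 63 shifted by 2 (log2), 59 of 79 shifted by 1 and 15 of 58 shifted by 0.5. The real arrays gave far more genes that passed and hold an array that stands apart, so these shares need not hold for them. Other scalings, background corrections, filters, tests, array weights, the replicate number as a block and leaving out each array were tried. Of the 40 member probes, 33 matched RefSeq by accession and 7 by symbol. The number of arrays limits the precision. The limma p-values set each difference against the spread between arrays within a group, and they cover no spread between slides. Of the 34 members, 1 is not reported here, though the counts include it.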

Additional observations from a re-analysis of the deposited data

Results flagged for a closer look

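Within 46 groups of 6 arrays (23 tested members in 2 conditions), 11 held an array that Dixon's test sets apart from the other 5, where chance alone gives about 1 in 20 groups. Of these, 4 were CUS arrays. CUS replicate 6 was lowest for Itga1 (4.47) and highest for Itgb5 (1.25). CUS replicate 1 was lowest for Itga7 (1.40) and for Itgb1bp1 (0.37). The other 7 were all control replicate 3, the lowest control array, for Itga11 (-3.02), Itga4 (-3.82), Itga5 (-4.47), Itgb4 (0.71), Itgb7 (-4.66), Lama5 (-1.06) and Lamc1 (3.24). Without that array the counts were 3 higher and 10 lower members, with Itga5 added to the lower.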

How the results depend on the processing

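The count of higher members (3) was 5 with quantile normalization and with the deposited value table, 12 with scaling on the spike-in RNAs, and 3 to 4 when each array was left out. The count of lower members (9) was 14 without the filter on dim probes (of 34 tested), 14 with normexp background correction, 1 with spike-in scaling, 13 with array weights, which added Itga5 (-0.79), Itga11 (-0.43), Itgb1 (-0.22) and Itgb7 (-0.42), and 8 to 10 when each array was left out. Over all tested genes the spike-in scaling gave 11114 higher and 438 lower, and normexp gave 3989 higher and 7652 lower, against 4201 and 4514. Without the filter all 23 tested members kept their calls, so the added calls rest on probes that had failed it. No count over all genes is given for that setting or for array weights. With spike-in scaling the sign turned for Itga1 (0.30), Itga10 (0.59), Itga11 (0.79), Itga5 (0.50), Itga6 (0.82), Itgb1 (0.63), Itgb2 (0.038), Itgb3bp (0.031), Lamb1 (0.77), Lamb2 (0.82), Lamc1 (0.47), Actn4 (0.095) and Sdc1 (0.032), and Itga4 (-0.49), Itgad (-0.19), Itgb4 (-0.69) Lama5 (-0.90), Fermt3 (-0.13), Agrn (-0.061), Col4a4 (-0.48), Col4a5 (-0.31), Col1a1 (-0.81), Col3a1 (-0.34) and Sdc3 (-0.11) no longer passed. The median gene moved by 0.83 under it, by -0.14 under normexp and by 0.05 under quantile normalization. With normexp the sign turned for Itga6 (0.0032), Itgav (-0.45), Itgb7 (-0.37), Lamb1 (0.047), Lamb2 (0.078), Lamb3 (-0.28) and Crk (-0.11), and for the ratios of Itga11 (-0.086) and Itgav (-0.32) to Itgb1. It turned for Itga6 (0.070), Itgav (-0.026) and Itgb7 (-0.42) with array weights, for Itga6 (0.025) and Lamb2 (0.027) with scaling on the median, for Itga11 with quantile normalization (0.084) and the deposited table (0.088), and for the ratio of Lamb1 to Lamc1 with the mean of probes (-0.0082). The cause was not tested. When each array was left out the sign varied for Itga11 (-0.26 to 0.041), Itga6 (-0.062 to 0.052), Itgav (-0.041 to 0.20), Itgb7 (-0.25 to 0.096) and Lamb2 (-0.061 to 0.030), and for the ratios to Itgb1 of Itga5 (-0.55 to 0.028), Itga10 (-0.17 to 0.15) and Itga11 (-0.047 to 0.24). Of the members that passed, only Lamc1 lost its call when an array was left out.

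With array weights 15 adhesion complex genes (9 in the fit reported), 15 other integrin ligands (5), 6 other matrix receptors (2) and 13 endothelial markers (6) were lower. With normexp 14 adhesion complex genes and 8 other ligands were lower, where 7652 of all 17417 tested genes were lower (4514 in the fit reported). With quantile normalization 2 basement membrane partners (4) were lower, where 3566 of all tested genes were. For array weights no count over all genes is given, so those counts cannot be set beside a background. No list was tested against these counts.

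The alternatives for ratios and pathway genes were chosen after seeing the data. The deviations of same-numbered arrays correlated at -0.19 to 0.43, and 2 of 6 CUS arrays correlated best with their own number. So few arrays cannot show whether the replicate numbers pair them. With the replicate number as a block the counts were 3 and 9, and no call of a member changed. The methods' t-test called 1 member higher and 5 lower at a fold of 2 before adjustment, and 12 members after Benjamini-Hochberg adjustment at any fold. Dim probes rest on surrogate values, and no difference is claimed for the 11 members that were not tested.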
